A study of Mus musculus with 9 samples.

Results

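The 46 genes described here mark steps of the cell division cycle, and they were followed through the cell classes of a mouse liver single-cell matrix. They were taken by symbol from a given list and are 46 of the 53713 rows of the matrix. All 46 had UMIs, which are molecule tags that count each captured transcript once, and together they held 148412 UMIs or 0.513% of the matrix. They were set in 3 groups by textbook role. The 25 G2/M genes act from late S phase through mitosis, the 12 replication genes act on DNA copying, and 9 genes were kept out of both groups, namely the D and E cyclins, E2f1, Cdkn1a, Hmgb2 and Stmn1.

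The study used C57BL/6J mice of 6 to 8 weeks. Carbon tetrachloride (CCl4), a hepatotoxin that causes fibrosis when given repeatedly, was injected for 0, 2 or 4 weeks in the wild-type arm (1 sample per time), and the 6 other samples carry the genotype label CluKO, for deletion of the secreted chaperone clusterin. The design text names 3 CluKO mice that received recombinant human clusterin while CCl4 was injected, and gives no CCl4 time for them. Those 6 samples lie in 1 matrix of 4694 cells with no sample names on its barcodes, so it was treated as 1 pooled sample without replicates. No test across samples was possible, and all intervals below are 95% intervals that cover counting error only. The 3 wild-type matrices (7739 to 20215 cells, with medians of 4009 to 5070 UMIs per cell) do not pair their rows with gene names, so these genes could not be followed along the CCl4 course. The matrix labelled CluKO held 13743 Clu UMIs, spread over 31.8% of its cells, which goes against its label. Whether those UMIs lie outside the deleted segment was not tested. Before filters it held 28912707 UMIs, with a median of 4803.5 UMIs per cell. After filters it held 4609 cells, with a median of 4857 UMIs.

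Cells were put in classes by UMIs of marker genes that are not among the 46, and 3896 cells were gated in this way. Some sets had priority when a cell met both of a pair. These were progenitor over monocyte, plasma cell over B cell, and immature over mature neutrophil. The 11 classes that follow had enough cells for a description of cycling: hepatocyte-like, mesothelial-like, Kupffer-like, 2 classes of macrophages with the scar-associated genes Gpnmb and Spp1 (called Mmp12-low and Mmp12-high), MHC class II macrophage-like, monocyte-like, granulocyte-monocyte progenitor-like, immature neutrophil-like, erythroid-like and plasma-cell-like. Because the classes were selected on these markers, high marker levels in a class are no separate support for its name. Each class had at least 1 of its own markers among its 10 leading genes by fold, for instance Ttr and Apoa1 in hepatocyte-like cells. For the Mmp12-low class that marker was Trem2, and neither Gpnmb nor Spp1 was among the 10. Gpnmb was at 8875 CPM in the Mmp12-low class, 13745 CPM in the Mmp12-high class and 140 CPM in Kupffer-like cells. Markers of stellate cells, the main collagen-producing cells of the fibrotic liver, were at most 25.6 CPM (UMIs of a gene as a scaled share of all UMIs of the class) in any of these classes, and no stellate class was formed.

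A dividing cell moves from a growth phase (G1) through DNA synthesis (S) and a second gap (G2) into mitosis (M). D cyclins answer to growth signals in G1, E cyclins and the transcription factor E2F1 drive entry into S phase, and p21, the product of Cdkn1a, restrains cyclin-dependent kinases. Replication genes are classical targets of E2F factors, while many mitotic genes are repressed outside G2 and M through a promoter element called the cell cycle homology region (CHR) and often carry CCAAT boxes. Adult hepatocytes are mostly out of the cycle and re-enter it after injury, and many of them are polyploid.

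The promoter letters are shown because the 2 groups of genes carry CHR and E2F letters at different rates, and CCAAT at a similar rate. RefSeq promoters (GRCm38.p6, from 250 bases before to 50 after the start of the gene) were found for 37 of the 46 genes. A gene was counted when any of its listed promoters held the letters. The CHR letters TTTGAA or TTCGAA, on either strand, stood in 18 of 22 G2/M genes (81.8%), in 2 of 10 replication genes and in 21.7% of all 27025 genes with a listed promoter. The 4 G2/M genes without them were Birc5, Ccnb1, Cenpe and Nusap1. The E2F letters TTCCCGC or TTGGCGC stood in 5 of 10 replication genes, in 4 of 22 G2/M genes (18.2%) and in 7.79% of all genes. CCAAT was present in 18 of 22 and in 8 of 10, against 41.1% of all genes. Its reverse complement, ATTGG, can share bases with TTGGCGC. A match describes letters and not a bound site.

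Stretches of 120 bases from 5 G2/M promoters follow, 5′ to 3′ on the strand of the gene, with the matched motifs in capitals. They lie at chr4:118437344-118437463 on the minus strand, chr10:69352913-69353032 (minus), chr11:99024190-99024309 (minus), chr19:37376262-37376381 (plus) and chr7:135716380-135716499 (minus).
Cdc20: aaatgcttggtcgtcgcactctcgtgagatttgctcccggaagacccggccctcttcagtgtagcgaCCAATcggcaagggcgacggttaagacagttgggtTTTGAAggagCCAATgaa
Cdk1: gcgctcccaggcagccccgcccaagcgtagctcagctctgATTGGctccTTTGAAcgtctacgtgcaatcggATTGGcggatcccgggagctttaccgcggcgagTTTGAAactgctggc
Top2a: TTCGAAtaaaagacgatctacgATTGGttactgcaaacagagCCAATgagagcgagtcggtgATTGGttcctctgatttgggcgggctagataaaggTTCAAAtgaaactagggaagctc
Kif11: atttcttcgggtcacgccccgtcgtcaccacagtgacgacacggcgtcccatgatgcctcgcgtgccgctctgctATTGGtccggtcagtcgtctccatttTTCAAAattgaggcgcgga
Mki67: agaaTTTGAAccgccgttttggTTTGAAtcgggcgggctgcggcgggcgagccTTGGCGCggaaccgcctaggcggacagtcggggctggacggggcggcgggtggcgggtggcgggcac

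Stretches of the same length from 3 replication promoters show E2F letters in Mcm6 and Rrm1, and CHR letters without E2F letters in Mcm2. They lie at chr1:128359706-128359825 (minus), chr7:102441575-102441694 (plus) and chr6:88898781-88898900 (minus).
Mcm6: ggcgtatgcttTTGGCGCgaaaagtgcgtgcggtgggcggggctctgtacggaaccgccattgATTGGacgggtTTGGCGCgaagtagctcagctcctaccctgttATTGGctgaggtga
Rrm1: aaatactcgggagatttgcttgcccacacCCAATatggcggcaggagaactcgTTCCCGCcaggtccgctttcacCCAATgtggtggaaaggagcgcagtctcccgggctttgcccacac
Mcm2: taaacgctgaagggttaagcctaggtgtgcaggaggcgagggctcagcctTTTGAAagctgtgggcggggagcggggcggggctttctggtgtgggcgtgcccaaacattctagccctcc

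Hepatocyte-like cells had far more G2/M than replication transcripts, whereas progenitor-like and erythroid-like cells were high in both. A cell was called G2/M-positive when at least 3 different G2/M genes had a UMI after the cell was thinned at random to 2000 UMIs, and replication-positive by the same rule over the 12 replication genes. The G2/M rule draws on more genes, 25, and the G2/M share was the higher in every class. The part of this in the gap between the shares was not tested. Of 601 hepatocyte-like cells, 373 were G2/M-positive (62.1%, 58.0 to 66.0) and 97 were replication-positive (16.1%, 13.3 to 19.3). In granulocyte-monocyte progenitor-like cells these shares were 82.0% (75.6 to 87.4) and 76.4% (69.5 to 82.4) of 178 cells. In erythroid-like cells they were 89.6% (80.6 to 95.4) and 70.1% (58.6 to 80.0) of 77 cells. The intervals of the G2/M share and the replication share lie far apart in hepatocyte-like cells and overlap in progenitor-like cells. In erythroid-like cells they lie side by side without overlap. Both shares come from the same cells, so these separate intervals do not measure the gap between them. Cells positive for G2/M only and for replication only numbered 287 and 11 in hepatocyte-like cells. These counts were 37 and 27 in progenitor-like and 19 and 4 in erythroid-like cells.

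Monocyte-like cells stood between these classes, with 50.9% G2/M-positive (45.0 to 56.7) and 28.5% replication-positive (23.4 to 34.1) of 291 cells. Mesothelial-like cells, which carry markers of the lining of the liver surface, were 25.6% G2/M-positive (21.7 to 29.7) and 16.8% replication-positive (13.5 to 20.4) of 477 cells. Plasma-cell-like cells gave 28.1% (21.0 to 36.1) and 16.4% (10.8 to 23.5) of 146. Within the mesothelial-like class, 34.9% (25.9 to 44.8) of the 106 cells with at least 2 UMIs of Enpp2 were G2/M-positive, beside 22.4% (18.0 to 27.2) of the 340 cells with none. These 2 intervals overlap slightly.

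Macrophage classes had lower shares than monocyte-like cells, and Kupffer-like cells had the lowest G2/M share of the 11 on thinned cells with the 3-gene rule. Of 622 Kupffer-like cells, which resemble the resident macrophages of the liver sinusoids, 13.2% were G2/M-positive (10.6 to 16.1) and 9.81% replication-positive (7.58 to 12.4). The Mmp12-low class gave 17.5% (14.7 to 20.5) and 8.66% (6.67 to 11.0) of 693 cells, and the Mmp12-high class 24.8% (20.2 to 29.97) and 16.4% (12.5 to 20.9) of 318 cells. The Mmp12-high intervals overlap those of the mesothelial-like and plasma-cell-like classes. MHC class II macrophage-like cells had 16.2% (8.95 to 26.2) G2/M-positive among 80 cells. The intervals of the last class overlap those of the other macrophage classes, and it was below the Kupffer-like class without thinning (17.5% beside 20.9%) and with a 2-gene rule (18.75% beside 20.9%). With a stricter marker gate, 27 cells of that MHC class II class were left, and 37.0% (19.4 to 57.6) were G2/M-positive. Immature neutrophil-like cells, with secondary granule transcripts such as Ltf and Camp, had 18.5% (12.7 to 25.7) of 151 cells G2/M-positive.

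The shares depended on depth, and their background could not be measured closely. Mature neutrophils do not divide, and 0 of 16 mature neutrophil-like cells (median 2753 UMIs) were G2/M-positive, with a 95% interval up to 20.6%; the limit that a count of 0 allows, 3 cells of 16, is 18.75%. Without thinning, the mesothelial-like share was 33.8% G2/M-positive and 37.1% replication-positive, the Mmp12-high shares were 41.5% and 46.5%, the Kupffer-like shares were 20.9% and 16.9%, and the hepatocyte-like replication share was 34.3%. In the mesothelial-like and Mmp12-high classes the order of the 2 shares was thus opposite to that on thinned cells, with overlapping intervals in both unthinned pairs. Here too the 2 shares of a pair come from the same cells, which the separate intervals ignore. G2/M-positive mesothelial-like cells had a median of 9304.5 UMIs and the other mesothelial-like cells 6881, while in hepatocyte-like cells the medians were 3466 and 3478. The part of depth in the mesothelial-like shares was not tested beyond thinning.

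**Figure D1:**
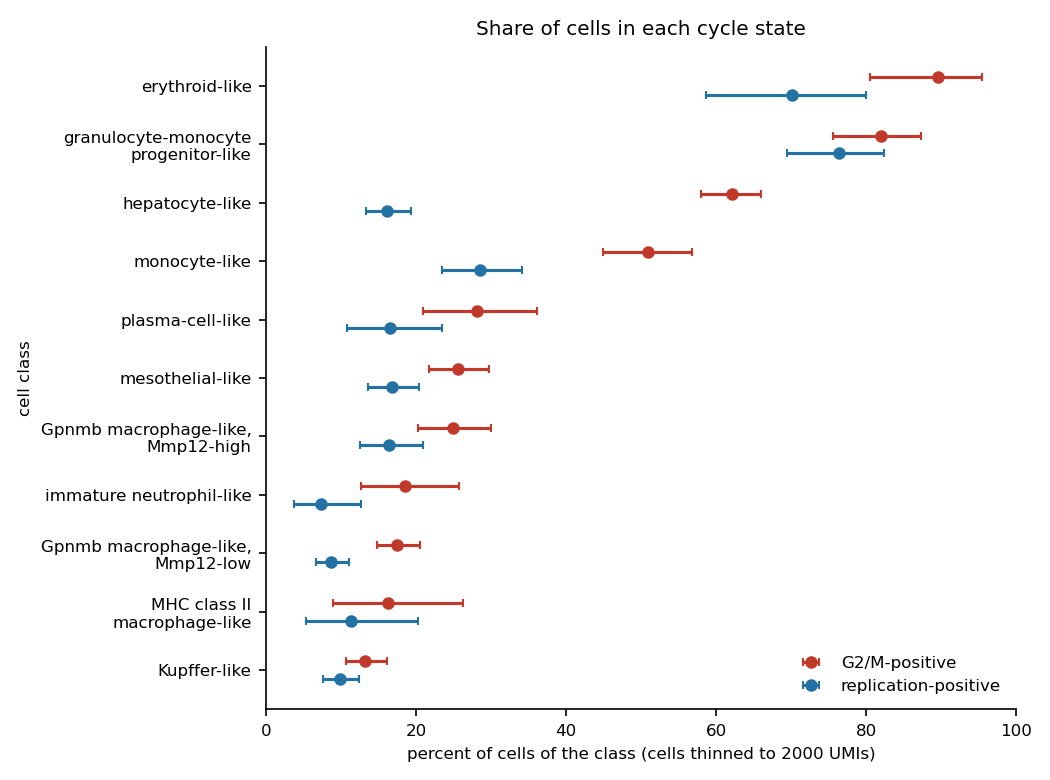
Percent of cells that were G2/M-positive (red) or replication-positive (blue) in each of 11 cell classes, in cells thinned to 2000 UMIs; points are shares of the pooled sample and bars are 95% Clopper-Pearson intervals. The 2 shares lie farthest apart in hepatocyte-like cells (62.1% and 16.1%) and close together in Kupffer-like and progenitor-like cells.

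Most G2/M-positive hepatocyte-like cells did not also carry 3 replication genes. Among them 23.1% (18.9 to 27.7) were positive for both sets, beside 47.5% (38.4 to 56.8) in mesothelial-like, 47.3% (39.0 to 55.7) in monocyte-like, 72.5% (60.4 to 82.5) in erythroid-like and 74.7% (66.8 to 81.5) in progenitor-like cells. The G2/M score in hepatocyte-like cells was spread widely and had no sharp edge at the threshold. The number of different G2/M genes per thinned cell had a median of 5, with quartiles of 0 and 8 and a maximum of 15. At 0 genes there were 151 hepatocyte-like cells, just under the threshold, with 2 genes, 28 cells, and just over it, with 3 genes, 20 cells. For replication genes 93 cells had 2 and 60 had 3, so the replication share rests more on the threshold.

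Summed levels showed the same contrast. In hepatocyte-like cells the 25 G2/M genes summed to 4127 CPM and the 12 replication genes to 771 CPM, a ratio of 5.35 (5.11 to 5.61). That replication level lay inside the range of the other classes, from 462 CPM in immature neutrophil-like to 4208 CPM in erythroid-like cells. Monocyte-like cells had 5738 and 1409 CPM, a ratio of 4.07 (3.87 to 4.28), and immature neutrophil-like cells 2014 and 462 CPM, a ratio of 4.36 (3.82 to 4.99). The ratio was lowest in progenitor-like cells at 1.73 (1.67 to 1.79), with 4734 and 2735 CPM, and in erythroid-like cells at 1.81 (1.72 to 1.90), with 7602 and 4208 CPM. Kupffer-like cells, at 1199 and 617 CPM, had a ratio of 1.94 (1.83 to 2.06) although few of them were positive for either set. The hepatocyte-like ratio was the highest of the 11 classes here, but with a stricter marker gate it was 5.30 and lay below 27 MHC class II macrophage-like cells at 6.29 and 180 immature neutrophil-like cells at 5.44.

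**Figure D2:**
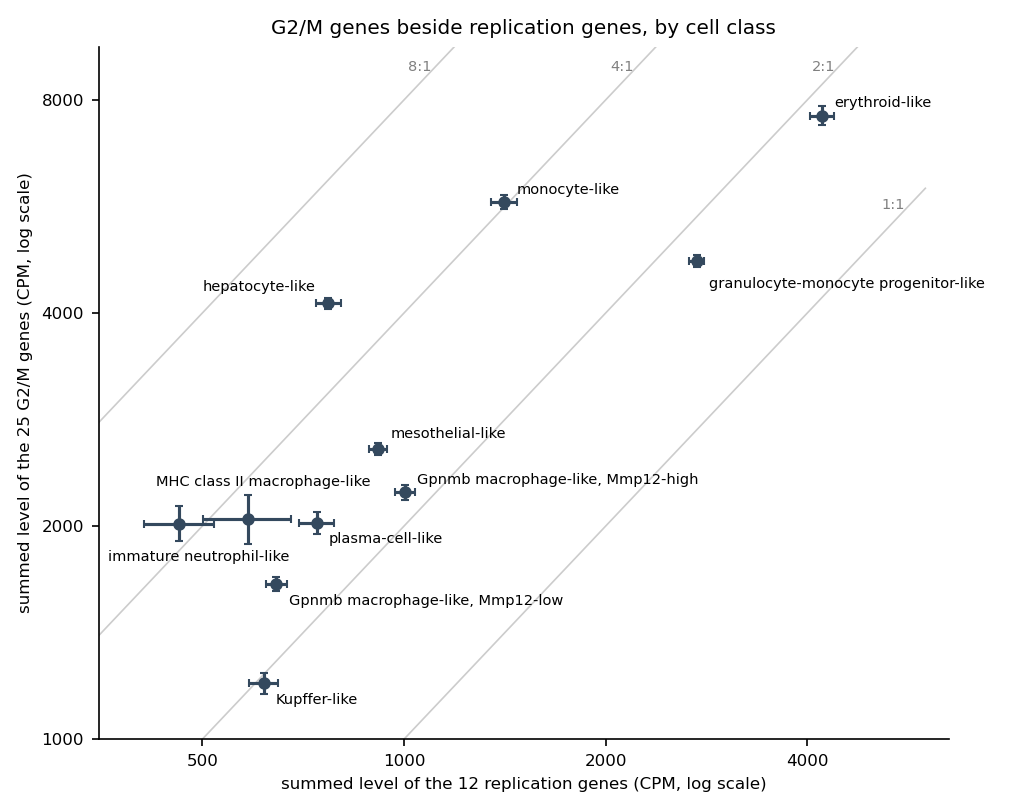
Summed level of the 25 G2/M genes against that of the 12 replication genes (CPM, both axes log scale) in 11 cell classes, with 95% Poisson bars and grey lines of equal ratio. Hepatocyte-like cells lie at a ratio of 5.35 and progenitor-like cells at 1.73.

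The hepatocyte-like class was uneven within itself. Cells above the class median of albumin share (0.433% of UMIs) were 66.3% G2/M-positive (60.7 to 71.7) and 11.0% replication-positive (7.69 to 15.1), with a ratio of summed levels of 6.96 (6.46 to 7.50). Cells at or below the median were 57.8% G2/M-positive (52.0 to 63.5) and 21.3% replication-positive (16.8 to 26.3), with a ratio of 4.42 (4.17 to 4.69). The replication shares and the ratios do not overlap between the 2 sides, and the G2/M shares do. The hepatocyte-like class also had the lowest median share of mitochondrial UMIs, 0.101% beside 0.604% to 2.20% in the 10 other classes, with 0.104% in its G2/M-positive and 0.0942% in its other cells. Its part in the cycling shares was not tested.

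Among the G2/M genes, those of the metaphase-to-anaphase step, Ccnb1 and Cdk1 were high in hepatocyte-like cells. Cdc20, which activates the anaphase-promoting complex, was at 365 CPM (344 to 388) in hepatocyte-like cells, between 102 and 139 CPM in mesothelial-like, progenitor-like, monocyte-like and erythroid-like cells, and between 20.3 and 70.8 CPM in the 6 other classes. Against all other gated cells (63.1 CPM) it was 5.79-fold higher (5.34 to 6.28). Ube2c, the ubiquitin-conjugating enzyme of that complex, was at 572 CPM, 2.85-fold higher (2.69 to 3.02), and only erythroid-like cells had more, at 704 CPM. Together Cdc20 and Ube2c made up 22.7% (21.9 to 23.5) of G2/M UMIs in hepatocyte-like cells, 17.5% in plasma-cell-like cells and 7.10% to 11.1% in the other 9 classes.

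Ccnb1 and Cdk1 were also at least 2-fold higher in hepatocyte-like than in other gated cells. Ccnb1, the cyclin B1 gene, was at 276 CPM (257 to 296) in hepatocyte-like cells, 259 CPM in erythroid-like cells and 20.3 to 179 CPM elsewhere, a 3.45-fold difference (3.17 to 3.75) from the other gated cells. Cdk1, the mitotic kinase, was at 274 CPM, 2.47-fold higher (2.28 to 2.68), and at 297 CPM in erythroid-like cells. Aurka, a spindle pole kinase, was at 118 CPM, 3.38-fold higher (2.96 to 3.85), while Plk1, which drives mitotic entry and exit, was at 125 CPM, and Birc5, the survivin subunit of the chromosomal passenger complex, at 319 CPM, each close to 2-fold higher. Ccnb2 was at 658 CPM in hepatocyte-like, 928 CPM in monocyte-like and 1241 CPM in erythroid-like cells. Ccna2, the cyclin of S and G2, ranged from 23.0 CPM in Kupffer-like to 308 CPM in erythroid-like cells, with 127 CPM in hepatocyte-like cells. Aurkb, the kinase of the passenger complex, ranged from 21.9 to 120 CPM.

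Proliferation markers in wide use were low in the same hepatocyte-like cells. Mki67, which encodes the Ki-67 protein of the mitotic chromosome surface, was at 84.3 CPM (73.9 to 95.7) there, the lowest of the 11 classes, and at 152 CPM in Kupffer-like, 209 CPM in mesothelial-like, 676 CPM in monocyte-like and 1105 CPM in erythroid-like cells. It was 3.44-fold lower (3.02 to 3.93) in hepatocyte-like than in other gated cells, although 62.1% of them were G2/M-positive. Top2a, the topoisomerase that untangles sister chromatids, was at 126 CPM, 1.89-fold lower (1.70 to 2.11). The 2 genes held 5.10% (4.70 to 5.51) of G2/M UMIs in hepatocyte-like cells and 15.3% to 23.8% in the 10 other classes.

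Cenpa, the centromeric histone, was at 228 CPM in hepatocyte-like, 353 CPM in monocyte-like and 51.1 CPM in plasma-cell-like cells. Ndc80, which binds microtubules at the kinetochore, was lowest in hepatocyte-like cells at 12.4 CPM and reached 67.2 CPM in monocyte-like cells. The checkpoint gene Bub1b was at 105 CPM in monocyte-like and 19.5 CPM in hepatocyte-like cells, and its partner Bub1 lay between 13.6 and 67.4 CPM. The kinetochore motor gene Cenpe was at 31.2 CPM in hepatocyte-like and 146 CPM in monocyte-like cells. Cenpf was at 123 CPM in mesothelial-like cells, 1.89-fold above the other gated cells (1.70 to 2.09), and Spdl1, a dynein adaptor at the kinetochore, was at 43.0 CPM in the Mmp12-high class and at 6.75 to 36.5 CPM elsewhere.

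Of the spindle genes, Prc1, which bundles midzone microtubules, was at 204 CPM in mesothelial-like, 185 CPM in hepatocyte-like and 50.2 CPM in Kupffer-like cells. Tpx2 and Nusap1, which build spindle microtubules, were highest in erythroid-like cells (270 and 352 CPM) and lowest in Kupffer-like cells (39.6 and 29.4 CPM). The kinesin genes Kif11 and Kif20b spanned 17.7 to 142 CPM and 29.8 to 86.9 CPM. Kif23, a kinesin of cytokinesis, ran against the order of the other spindle genes in Kupffer-like cells, at 78.5 CPM beside 46.7 CPM in the other gated cells, 1.68-fold higher (1.44 to 1.95).

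**Figure D3:**
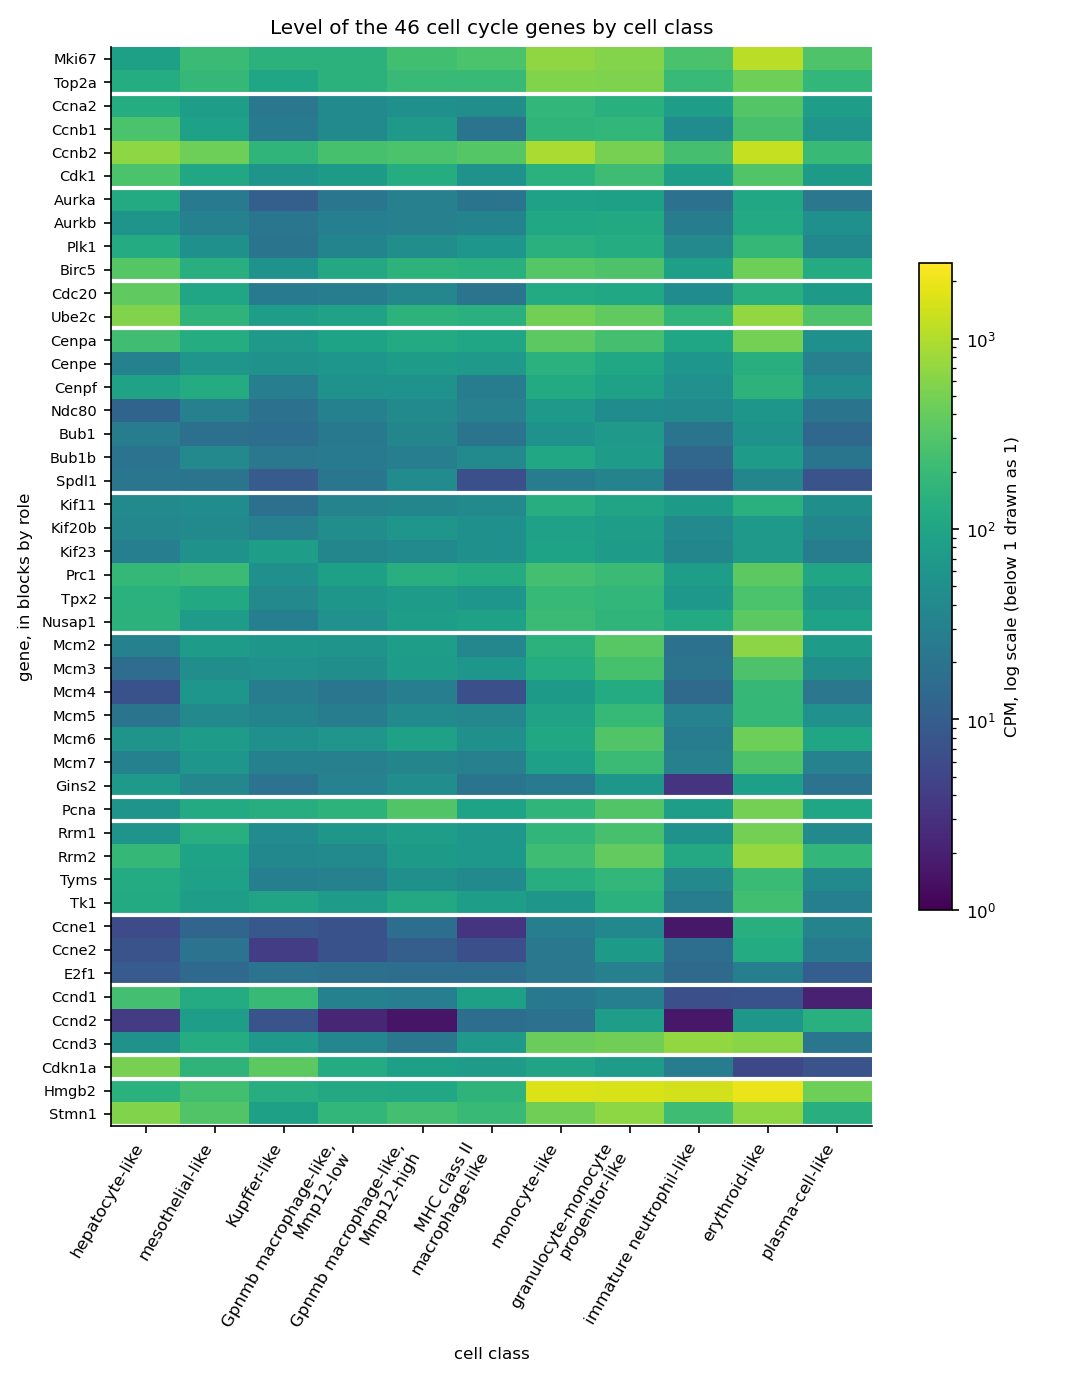
Level of each of the 46 genes (colour, CPM on a log scale) in 11 cell classes, with white lines between blocks of genes by role. Cdc20 is highest in hepatocyte-like cells at 365 CPM, where Mki67 is at 84.3 CPM, and Hmgb2 exceeds 1000 CPM in 4 blood-forming classes.

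Helicase subunits and Pcna were lower in hepatocyte-like than in other gated cells, while 3 of the 4 nucleotide genes and Gins2 were higher. Mcm2 to Mcm7 encode the 6 subunits of the replicative helicase, and Mcm2 was at 30.8 CPM in hepatocyte-like cells beside 113 CPM in the other gated cells, 3.67-fold lower. Mcm3 was at 16.3 beside 84.2 CPM, and Mcm4 at 7.08 beside 48.7 CPM, 6.88-fold lower (4.43 to 11.3). Mcm5, Mcm6 and Mcm7 were at 20.5, 56.7 and 31.5 CPM in hepatocyte-like cells. Pcna, the sliding clamp of DNA polymerase, was at 57.4 CPM, 3.22-fold lower.

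Rrm2, the regulated subunit of ribonucleotide reductase, was at 183 CPM in hepatocyte-like and 131 CPM in other gated cells. Tyms, thymidylate synthase, was at 123 CPM, 1.70-fold higher (1.51 to 1.91), Tk1, thymidine kinase, at 120 beside 89.6 CPM, and Gins2, a subunit of the helicase activator GINS, at 67.3 CPM, 1.92-fold higher (1.63 to 2.26). Rrm1, the large subunit of ribonucleotide reductase, went the other way, at 57.7 beside 111 CPM, 1.92-fold lower (1.64 to 2.27). Together Rrm1, Rrm2, Tyms and Tk1 made up 62.7% (60.6 to 64.7) of replication UMIs in hepatocyte-like cells and 31.5% to 51.1% in the other 10 classes. Mcm2 to Mcm7 made up 21.1% (19.4 to 22.9), beside 30.8% to 51.2%.

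In progenitor-like cells all 6 Mcm genes were at least 2-fold higher than in other gated cells. Mcm2 was at 327 CPM, 3.91-fold higher (3.57 to 4.27), Mcm3 at 256 CPM, 4.25-fold (3.83 to 4.70), and Mcm7 at 209 CPM, 4.38-fold (3.90 to 4.90). Erythroid-like cells reached 642 CPM of Mcm2, 7.0-fold higher (6.24 to 7.84), and 716 CPM of Rrm2, 5.77-fold higher (5.18 to 6.41). Immature neutrophil-like cells were at the other end, with 18.4 CPM of Mcm2 and 3.35 CPM of Gins2. Pcna in the Mmp12-high macrophage class was at 295 CPM, 1.95-fold above the other gated cells (1.81 to 2.10). Without thinning, 69.8% of these deeply counted cells had a Pcna UMI and 46.5% were replication-positive. On thinned cells 16.4% were replication-positive.

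**Figure D4:**
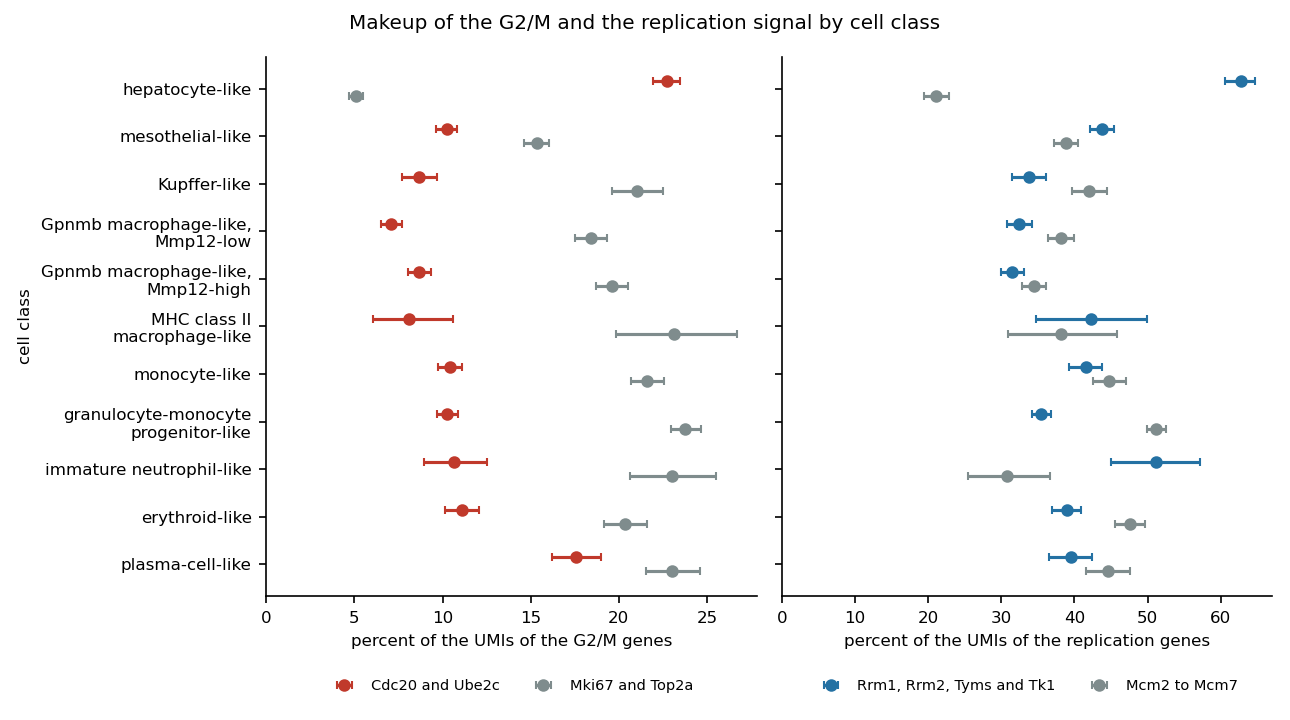
Percent of the UMIs of the 25 G2/M genes held by Cdc20 and Ube2c or by Mki67 and Top2a (left), and percent of the UMIs of the 12 replication genes held by Rrm1, Rrm2, Tyms and Tk1 or by Mcm2 to Mcm7 (right), in 11 cell classes with 95% Clopper-Pearson bars. Hepatocyte-like cells lie apart in both panels, with 22.7% against 5.10% on the left and 62.7% against 21.1% on the right.

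Counted over the list, each class was set against all other gated cells, with 20 CPM added to both levels and genes of at least 30 summed UMIs. In hepatocyte-like cells 7 of 46 members were at least 2-fold higher (all genes tested 8.25%) and 8 at least 2-fold lower (all genes 12.0%); 5 G2/M genes were among the higher and 4 replication genes among the lower. The list was thus divided between directions in hepatocyte-like cells, where many genes of all kinds passed 2-fold. In erythroid-like cells 31 members were higher (all genes 5.99%) and 2 lower, Ccnd1 and Cdkn1a (all genes 12.6%). In progenitor-like cells 16 were higher (all genes 4.21%), 9 of them replication genes, and the 2 lower were again Ccnd1 and Cdkn1a (all genes 7.77%).

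In monocyte-like cells 12 members were higher (all genes 2.33%), 10 of them G2/M genes and none a replication gene, and Ccnd1 was the 1 lower (all genes 6.05%). Mki67 was 2.79-fold (2.60 to 2.99) and Top2a 2.74-fold (2.54 to 2.96) higher there. In Kupffer-like cells 22 members were lower (all genes 5.39%), 15 of them G2/M genes, such as Ccnb1 at 24.2 CPM and 4.63-fold lower (3.61 to 6.03), and the 2 higher (all genes 4.56%) were Ccnd1 and Cdkn1a. In mesothelial-like cells Ccnd2 was the 1 higher member (all genes 8.48%) and Hmgb2 the 1 lower (all genes 6.62%).

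The other classes had more members lower than higher. The Mmp12-low and Mmp12-high classes had 0 members higher (all genes 1.25% and 1.50%), and 9 and 5 lower (all genes 5.07% and 5.04%), with Cdc20 and the 3 D cyclins among both. MHC class II macrophage-like cells had 0 higher (all genes 1.19%) and 8 lower (all genes 5.51%). Immature neutrophil-like cells had 2 higher, Ccnd3 and Hmgb2 (all genes 3.03%), and 8 lower (all genes 19.1%). Plasma-cell-like cells had Ccnd2 higher (all genes 1.60%) and 8 lower (all genes 17.7%). In both the immature neutrophil-like and the plasma-cell-like class, lower members were no more frequent than lower genes among all genes tested. Those lower counts therefore show nothing particular to the members.

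The D cyclins, which couple growth signals to the cycle in G1, each had their own classes. Ccnd1 was at 240 CPM (222 to 259) in hepatocyte-like, 198 CPM in Kupffer-like, 122 CPM in mesothelial-like and 84.4 CPM in MHC class II macrophage-like cells, and at 2.04 to 30.9 CPM in the other 7. Ccnd2 was at 144 CPM in plasma-cell-like, 78.7 CPM in progenitor-like, 77.3 CPM in mesothelial-like and 63.8 CPM in erythroid-like cells, and at 3.90 CPM in hepatocyte-like cells, 10.1-fold under the other gated cells (5.63 to 20.3). Ccnd3 was at 708 CPM in immature neutrophil-like, 629 CPM in erythroid-like, 458 CPM in progenitor-like and 424 CPM in monocyte-like cells, and at 21.8 to 126 CPM in the other 7. Mesothelial-like cells thus carried all 3 at 77.3 to 126 CPM.

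Cdkn1a, the p21 gene, was highest in the 3 classes with most Ccnd1. It was at 503 CPM (477 to 529) in hepatocyte-like cells, 3.88-fold above the other gated cells (3.64 to 4.14), 353 CPM in Kupffer-like and 164 CPM in mesothelial-like cells. In erythroid-like cells it was at 5.47 CPM, 32.1-fold lower (11.0 to 156), and in plasma-cell-like cells at 7.49 CPM. The E cyclins and E2f1, which open S phase, were sparse in most classes. Ccne1 was at 139 CPM in erythroid-like cells, 9.19-fold higher (7.08 to 11.8), and at 6.02 CPM in hepatocyte-like cells. Ccne2 was at 122 CPM in erythroid-like, 70.4 CPM in progenitor-like and 7.44 CPM in hepatocyte-like cells. E2f1 stayed between 9.56 and 29.8 CPM in all 11 classes.

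**Figure D5:**
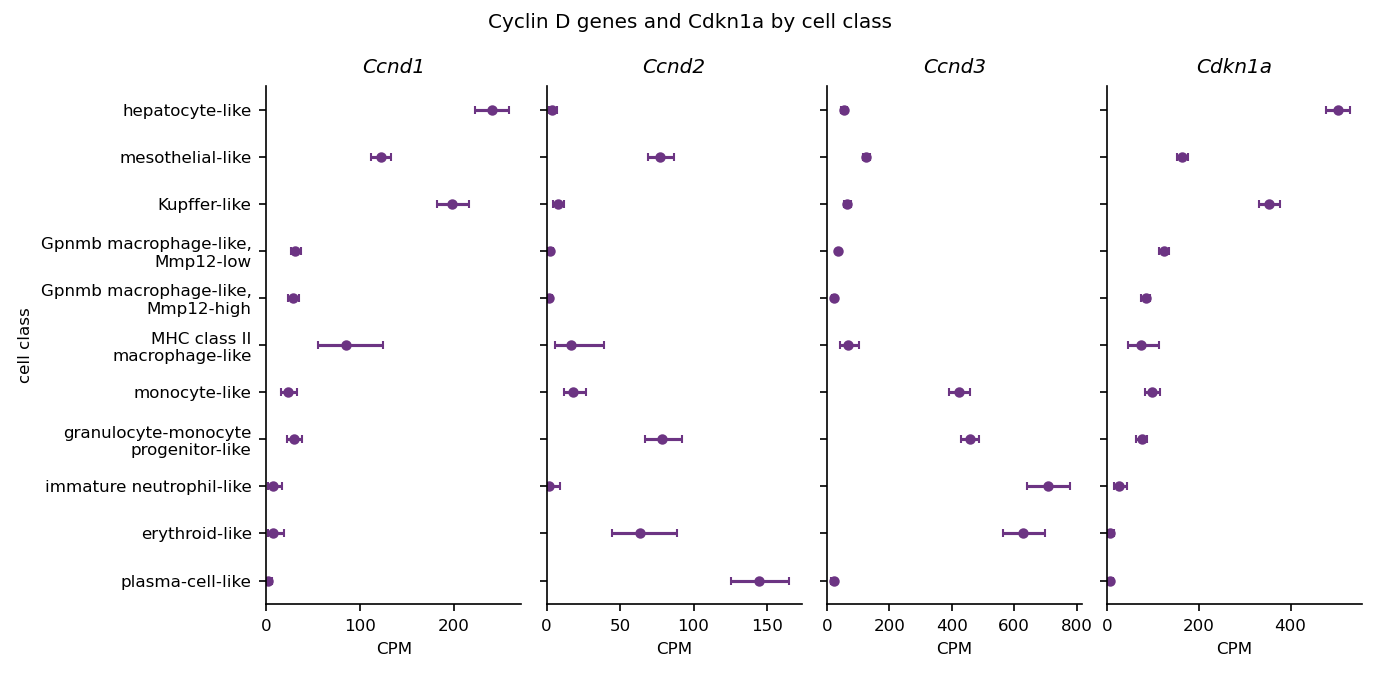
Level (CPM, axis from 0) of the D cyclin genes and Cdkn1a in 11 cell classes, with 95% Poisson bars. Ccnd1 and Cdkn1a are highest in hepatocyte-like cells (240 and 503 CPM), Ccnd2 in plasma-cell-like cells (144 CPM) and Ccnd3 in immature neutrophil-like cells (708 CPM).

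These genes define neither state, so their levels could be compared by state within 1 class, in thinned counts. Cells positive for neither set were below the threshold of both rules, and whether they were outside the cycle was not tested. In hepatocyte-like cells Ccnd1 was at 283 CPM in the 217 cells positive for neither set, 273 CPM in 11 cells positive for replication only, 250 CPM in 86 cells positive for both and 152 CPM in 287 cells positive for G2/M only. The last value was 1.87-fold under the first (1.41 to 2.49). Cdkn1a was at 537 CPM in neither, 651 CPM in both and 409 CPM in G2/M-only cells, 1.31-fold under neither (1.09 to 1.58). Cdkn1a transcripts were thus present in G2/M-positive hepatocyte-like cells as well.

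In Kupffer-like cells Ccnd1 was also lower in G2/M-only cells, at 83.3 CPM beside 215 CPM in neither, a ratio of 0.39 (0.17 to 0.75). Cdkn1a was higher there, at 509 CPM in 54 G2/M-only cells beside 338 CPM in neither, 1.51-fold higher (1.11 to 2.01), and at 121 CPM in 33 replication-only cells, 2.79-fold lower (1.40 to 6.52). In mesothelial-like cells Ccnd2 was at 107 CPM in 333 cells of neither state and at 25.9 CPM in 58 cells positive for both, 4.12-fold lower (1.35 to 20.5). The Ccnd2 level in cells positive for both rested on 3 UMIs, and that in 64 G2/M-only cells on 1 UMI. Mesothelial-like Cdkn1a was at 159 CPM in neither and 164 CPM in both. In G2/M-only cells it was at 39.1 CPM, from 5 UMIs, 4.07-fold lower than in neither (1.69 to 12.8). Mesothelial-like Ccnd1, by contrast, was at 97.6 CPM in neither and 85.9 CPM in G2/M-only cells, a ratio of 0.88 (0.42 to 1.68). In monocyte-like cells Ccnd3 was at 254 CPM in neither and 643 CPM in cells positive for both, 2.53-fold higher (1.82 to 3.53).

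In some classes the E cyclins were higher in cells positive for both sets than in neither. In hepatocyte-like cells they were too sparse to compare, with 1 UMI of Ccne2 in cells positive for both and 3 in neither (0.84-fold, 0.016 to 10.5). In mesothelial-like cells Ccne1 was 17.2-fold (4.30 to 98.9) and Ccne2 23.0-fold (6.20 to 127) higher in cells positive for both than in neither, from 12 UMIs of Ccne2 in the first and 3 in the second. Ccne1 had 0 UMIs in the 130 monocyte-like cells of neither state and 13 UMIs in the 70 cells positive for both, at least 8.05-fold higher against a floor of 3 UMIs over the group. Hmgb2, a chromatin protein, and Stmn1, which destabilises microtubules, were higher in hepatocyte-like cells positive for both sets than in neither. Hmgb2 was at 390 CPM in cells positive for both, 21.1-fold over neither (10.1 to 50.9), and Stmn1 was at 1105 CPM beside 154 CPM, 7.16-fold higher. Across classes Hmgb2 was at 1452 to 1970 CPM in the immature neutrophil-like, progenitor-like, monocyte-like and erythroid-like classes and at 106 to 439 CPM in the other 7, and the immature neutrophil-like class was among the high ones with 18.5% of its cells G2/M-positive. Stmn1 lay between 85.7 CPM in Kupffer-like and 663 CPM in progenitor-like cells.

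A list of 95 other cell cycle genes gave a readout that the state rules did not use directly, although these genes come from the same cells. Of the 49 with enough counts in hepatocyte-like cells, 38 were at least 2-fold higher in G2/M-positive than in other cells (all non-member genes 4.40%) and none lower, and 10 were higher in replication-positive cells (all genes 1.12%). The median log2 ratio of the list was 1.58 by G2/M state and 0.70 by replication state, beside 0.07 and 0.02 over all genes. Enough counts meant 30 summed UMIs over both states, so a sparse gene could enter through the cells where it was high. These counts are therefore a description and no independent support for the states. With a minimum of 10 UMIs, 43 of 76 were higher by G2/M state (all genes 3.27%), with a median log2 ratio of 1.16. In mesothelial-like cells 32 and 30 of 39 were higher (all genes 3.19% and 3.15%), and in Kupffer-like cells 23 and 21 of 31 (all genes 2.46% and 2.73%). The Mmp12-low class gave 27 and 29 of 36 (all genes 2.87% and 3.56%), the Mmp12-high class 20 and 19 of 25 (all genes 3.20% and 3.00%) and monocyte-like cells 35 and 24 of 40 (all genes 5.80% and 4.43%).

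By ratio, the leading non-members in G2/M-positive hepatocyte-like cells were mostly mitotic genes as well. Ckap2l, a spindle protein gene, was at 430 CPM beside 17.5 CPM in other hepatocyte-like cells, and Cdca8, which encodes borealin of the passenger complex, at 229 beside 4.39 CPM. Spc25, a kinetochore subunit of the Ndc80 complex, was at 385 beside 24.1 CPM, and Esco2, an acetyltransferase for sister chromatid cohesion, at 150 beside 2.19 CPM. Knstrn was 19.2-fold, Nek2 26.9-fold, Pbk 26.7-fold, Smc4 12.1-fold and Kif20a 14.3-fold higher. Tubb6, a tubulin gene, was at 650 beside 57.0 CPM. Some cell cycle genes on the list did not pass 2-fold in these cells: Pttg1, the securin gene, was at 160 beside 114 CPM, and Cdk4, the partner of D cyclins, at 37.5 beside 72.4 CPM.

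Transcripts of other cell types moved with the state in some classes. In hepatocyte-like cells the list of 7 erythroid markers summed to 34858 CPM in G2/M-positive cells (5 of 7 with a UMI) and 52958 CPM in other cells (6 of 7), although red cells had been lysed. The list of 9 hepatocyte markers, all detected in both, summed to 33929 and 26493 CPM. In monocyte-like cells the erythroid list summed to 7780 CPM (3 of 7) in G2/M-positive and 22825 CPM (5 of 7) in other cells. The 5 MHC class II macrophage markers summed to 723 and 4161 CPM, and the 5 progenitor markers to 1223 and 434 CPM. The part of these transcripts in the differences between states was not tested.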

How the data were processed

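Single-cell RNA was captured from mouse liver on the Singleron GEXSCOPE microwell system, per the labels' protocols. The deposited matrices hold UMI counts per gene and cell, unnormalized, judged from whole-number values. The submitters' processing notes name GRCm38 as the build. No source used here gives the aligner, the counter, their treatment of strand or of reads shared between gene copies, or any doublet removal.

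Only the matrix labelled CluKO pairs rows with gene symbols. Its 4694 cells were filtered at 200 genes and at most 20% mitochondrial UMIs, which kept 4616, and Scrublet in scanpy 1.11.5 marked 7 cells (0.152%), too few to count as a working doublet call; 4609 cells were used. A class required at least 2 UMIs in each of a set number of markers (from 2 to 5 markers, for example 5 for hepatocytes and 3 for mesothelial cells). Macrophages were divided by further marker sets and by 10 or more Mmp12 UMIs. The 64 macrophages that met both the Kupffer and the Gpnmb sets entered neither class but counted as gated. After the priorities between sets, 279 cells that still met more than 1 set and 434 that met none were kept apart. CPM came from counts summed over a class. Intervals were exact Poisson (levels), conditional binomial (ratios) and Clopper-Pearson (shares), at 95%. Folds for counts of genes used an offset of 20 CPM and a summed count of at least 30, over 13481 genes. For states, cells were thinned to 2000 UMIs; the shallowest cell had 2371, so none was left out. The genes named outside the members were those of a fixed list of cell cycle genes and the 10 with the highest ratio in G2/M-positive cells of the class with most such cells, without mitochondrial, ribosomal, immunoglobulin, haemoglobin and unnamed genes. Alternatives changed the state threshold, thinning, marker gate, cell filter, doublet treatment, count minimum and offset. The members, classes and lists were chosen with earlier results of these data known. Python 3.11.15, numpy 2.4.6, scipy 1.17.1 and pandas 2.3.3 were used, and the fold and interval code was tested on simulated data.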

Additional observations from a re-analysis of the deposited data

How the results depend on the processing

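No fold between states changed sign under the alternatives in which it was compared. These folds were not compared without thinning or with cells thinned to 1000 UMIs, so their dependence on depth was not tested. Orders between shares and ratios did change. Without thinning the G2/M share was below the replication share in mesothelial-like cells (33.8% and 37.1%) and in the Mmp12-high class (41.5% and 46.5%), and the latter also held with 2 genes (28.0% and 28.6%). The MHC class II class, not the Kupffer-like class, had the lowest G2/M share without thinning (17.5%) and with 2 genes (18.75%), and the hepatocyte-like ratio was no longer highest under the stricter gate (5.30). Calling a state from 2 different genes gave G2/M-positive shares of 66.7% in hepatocyte-like, 20.9% in Kupffer-like, 57.0% in monocyte-like and 91.6% in progenitor-like cells, and replication-positive shares of 31.6%, 15.9%, 41.9% and 91.6% in the same classes and 24.5% in mesothelial-like cells. From 4 genes, the G2/M shares were 9.97% in Kupffer-like and 70.8% in progenitor-like cells, and the replication shares 6.16% in hepatocyte-like, 10.5% in mesothelial-like, 6.11% in Kupffer-like, 19.2% in monocyte-like and 59.0% in progenitor-like cells. Without thinning, the G2/M shares were 33.8% in mesothelial-like, 20.9% in Kupffer-like and 98.9% in progenitor-like cells, and the replication shares 34.3% in hepatocyte-like, 37.1% in mesothelial-like, 16.9% in Kupffer-like, 42.6% in monocyte-like and 98.3% in progenitor-like cells. Thinned to 1000 UMIs, the G2/M shares were 52.7% in hepatocyte-like, 20.8% in mesothelial-like, 9.65% in Kupffer-like and 54.5% in progenitor-like cells, and the replication shares 5.49%, 6.50%, 4.98% and 42.1% in these classes and 11.7% in monocyte-like cells. With the 5% highest doublet scores left out, the Kupffer-like ratio of G2/M to replication level was 2.10. With a stricter marker gate the G2/M share was 56.9% in monocyte-like and 37.0% in MHC class II macrophage-like cells. Under that gate the ratios were 1.83 in Kupffer-like and 3.70 in monocyte-like cells. With markers read on thinned cells, an alternative chosen after seeing the data, the ratios were 2.10 in Kupffer-like, 3.52 in monocyte-like and 1.79 in progenitor-like cells. With an offset of 5 CPM, 13 members were at least 2-fold lower in hepatocyte-like cells instead of 8, 18 instead of 9 in the Mmp12-low class, 13 instead of 8 in MHC class II macrophage-like and 16 instead of 8 in immature neutrophil-like cells. With a minimum of 10 summed UMIs more listed cell cycle genes were tested, and those higher in G2/M-positive cells went from 32 of 39 to 59 of 73 in mesothelial-like (all genes 3.44%), from 23 of 31 to 49 of 69 in Kupffer-like (3.13%), from 27 of 36 to 60 of 74 in Mmp12-low (3.39%), from 20 of 25 to 46 of 59 in Mmp12-high (4.20%) and from 35 of 40 to 60 of 77 in monocyte-like cells (5.98%). By replication state they went to 56 of 73, 48 of 69, 56 of 74, 40 of 59 and 43 of 77 in the same classes. Of the values that answer a comparison, 41 moved and the other 119 stayed within their intervals or within 1.5 times the count. Among the remaining values 225 moved and 2500 stayed. Leaving out the cell filter changed no cell of the described classes. Its values were therefore bound to stay and say nothing about stability, although they are among those counted as staying. Depth limits the sparse genes, since Ccne1, Ccne2 and E2f1 rest on few UMIs by state. No paired analysis was possible because the 6 samples labelled CluKO lie in 1 pooled matrix without sample names.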

Other observations

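Classes with too few cells for the main description also held cycling cells. Of 38 T/NK-like cells, 60.5% (43.4 to 76.0) were G2/M-positive and 44.7% (28.6 to 61.7) replication-positive, with Hmgb2 at 2673 CPM and Ccnd2 at 155 CPM. Of 30 basophil/mast-like cells, 33.3% were G2/M-positive and 33.3% replication-positive. The shares were 28.6% and 38.1% in 21 B-cell-like cells, 37.5% and 31.2% in 16 dendritic-like cells, and 17.6% and 17.6% in 17 endothelial-like cells.

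Macrophages outside the named subclasses (60 cells) were 16.7% G2/M-positive and 11.7% replication-positive. The 279 cells kept apart for meeting more than 1 marker set were 33.7% and 19.0%. The 434 cells that met none were 34.1% and 15.9%. Both G2/M shares were near the 33.3% over all 4609 cells.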
